A study of Mus musculus with 6 samples.

Results

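The 6 protein-coding genes Dpysl4, 6330403K07Rik, Dok6, Tmem121, Rufy4 and Nsg1 were read clearly in WT primary uterine stromal cells of the mouse and were nearly silent in cells from Pbrm1 cKO mice. They were chosen by name from the genes with at least 20 raw counts in every WT library and at most 20 in every Pbrm1 cKO library, out of 54232 genes in the count table. Of 11070 protein-coding genes that met the WT limit, 160 (1.45%) met both limits, so the 6 genes are a named subset and 154 others fit the same limits. The levels in both groups chose these genes, and they are therefore given as a description, with no test. RNA was sequenced from 3 WT and 3 Pbrm1 cKO preparations, and the study aimed to find genes expressed differently between them.

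The cells came from mice aged 8 to 12 weeks on day 4. The labels call the day one of pregnancy, whereas the protocol describes pseudopregnant females. Pbrm1 cKO mice carried floxed Pbrm1 alleles and a PR-IRES-cre allele, in which Cre is made wherever the progesterone receptor is expressed, so deletion was not restricted to the stroma. The labels name the controls WT, while the study describes them as Pbrm1 fl/fl, so both groups may share the floxed alleles. Each preparation pooled 5 to 10 uterine horns, and plated cells were kept for 4 h, given fresh medium and washed 2 h later for RNA. The study took a Cre line of the B6.129S(Cg) background from the Jackson Laboratory, and the background of the floxed Pbrm1 line was not given in the sources used here. The study calls the 3 preparations of a group biological replicates, and the labels do not say which animals each held. Total counts were 13253575 to 18338667 per library, a 1.38-fold range, and a count of 0 allows a level of up to 0.164 to 0.226 CPM (a count scaled to the total of its library), for counting error only.

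PBRM1 is a bromodomain protein of PBAF, a form of the SWI/SNF complex that uses ATP to move nucleosomes and so changes access to promoters and enhancers. Uterine stromal cells are fibroblast-like cells that respond to progesterone and turn into decidual cells when an embryo implants. Apart from 6330403K07Rik, for which no family was listed, the genes belong to different protein families, several of them known best from nerve cells. Dpysl4 encodes a collapsin response mediator protein (CRMP), a cytosolic protein of semaphorin signalling. Dok6 encodes a docking adaptor that binds activated receptor tyrosine kinases such as RET. Nsg1 encodes a small membrane protein of endosomes that takes part in receptor recycling, Rufy4 a RUN and FYVE domain protein of autophagy and late endosomes, and Tmem121 a predicted membrane protein.

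The promoters are shown because the 6 genes are low together in Pbrm1 cKO and the stretch of DNA before each start is where their transcription begins. RefSeq sequence of the 250 bases before the annotated start was at hand for 3 of the 6 genes (assembly GRCm38.p6), and for Dpysl4, Nsg1 and Dok6 none is printed. Capitals mark matches to short motifs, and each sequence runs 5′ to 3′ on the strand of its gene. The first lies at chr11:71033618-71033867 on the minus strand, the second at chr12:113185653-113185902 on the plus strand and the third at chr1:74125291-74125540 on the plus strand. The start that RefSeq gives lies 104 bases before that of the count table for 6330403K07Rik and 27 bases before it for Tmem121, while the starts of Rufy4 are the same.
6330403K07Rik: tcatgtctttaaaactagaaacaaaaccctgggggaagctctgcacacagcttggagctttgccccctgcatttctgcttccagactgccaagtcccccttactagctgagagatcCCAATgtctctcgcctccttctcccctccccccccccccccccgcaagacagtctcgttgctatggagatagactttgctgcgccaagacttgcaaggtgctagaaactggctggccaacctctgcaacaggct
Tmem121: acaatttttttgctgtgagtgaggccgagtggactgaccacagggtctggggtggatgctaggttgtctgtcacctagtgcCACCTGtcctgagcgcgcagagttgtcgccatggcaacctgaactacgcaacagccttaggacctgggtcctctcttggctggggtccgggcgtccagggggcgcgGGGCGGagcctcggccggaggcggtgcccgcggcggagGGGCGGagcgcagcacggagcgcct
Rufy4: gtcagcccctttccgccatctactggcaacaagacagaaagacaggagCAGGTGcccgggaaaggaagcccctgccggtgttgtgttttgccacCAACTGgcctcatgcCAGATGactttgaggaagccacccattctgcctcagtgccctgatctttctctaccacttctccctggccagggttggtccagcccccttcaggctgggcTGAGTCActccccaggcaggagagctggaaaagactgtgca

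No motif searched was found in all 3 promoters. A search of both strands was made for 6 motifs, and no match overlapped another. The TATA box, which many tightly regulated promoters carry, was searched as TATAAA. The box bound by NF-Y was searched as CCAAT, and the GC box that Sp1 and related factors bind as GGGCGG. The AP-1 motif, where Fos and Jun proteins bind, was searched with any base in its middle as TGANTCA. The cAMP response element, where CREB binds, was searched without ambiguous letters as TGACGTCA. The E-box, at which helix-loop-helix proteins bind, was searched with any pair of bases in its middle as CANNTG. In 6330403K07Rik the one match was CCAAT at position -134, counted back from the start, and 33.8% of 32851 promoters of the same length hold this motif. Tmem121 had a GC box at -63 and another at -25, a motif found in 32.7% of promoters, and an E-box (CACCTG) at -169. Rufy4 had an AP-1 motif (TGAGTCA) at -41, found in 6.7% of promoters, and E-boxes at -202, -156 and -141. E-boxes were the only motif present in both Tmem121 and Rufy4, and 66.2% of all promoters have one. TATAAA (12.4% of promoters) and the cAMP response element (1.5%) had no match in these windows. The promoters also differed in base composition. Tmem121 had 20 CpG dinucleotides, more than 82.1% of promoters, whereas 6330403K07Rik had 4 and Rufy4 had 3, against a median of 6. GC content was 66.4% for Tmem121, 55.2% for 6330403K07Rik and 58.4% for Rufy4, with a median of 52.4% over all promoters.

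The targeted gene was checked first. Pbrm1 itself was read 1267, 1248 and 1551 times in the WT libraries, against 402, 574 and 481 times in the Pbrm1 cKO libraries. The groups did not overlap, and normalised counts (raw counts divided by the DESeq2 size factor of the library) averaged 1472 ± 178 for WT against 436 ± 33.9 for Pbrm1 cKO (SD, n = 3 per group). The log2 fold change of Pbrm1 cKO over WT was -1.76 with an SE of 0.13 (DESeq2 adjusted p = 5.2e-40). These counts cover all exons of the gene and do not measure the deleted exons alone. Remaining Pbrm1 counts were 30.0% ± 2.43 of the WT mean by CPM, and each of the 6 genes was far below that share in all 3 Pbrm1 cKO libraries.

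Dok6 and 6330403K07Rik were the genes without any read in Pbrm1 cKO. Dok6 (ENSMUSG00000073514.3) lies on the minus strand of chromosome 18 from 89301082 to 89769528 in GRCm38, a span of 468447 bases with 5146 exonic bases. Its reads numbered 27, 43 and 39 in the WT libraries, against 0 in each of the 3 Pbrm1 cKO libraries. All WT libraries thus held a modest number of reads and no Pbrm1 cKO library held one. With the 0 of the Pbrm1 cKO group set at 3 counts over the group, the pooled WT level of Dok6 was 43.3 times that of Pbrm1 cKO. This value leaves out the error of the WT reads and is no lower limit of an interval. Its WT level was 2.68 ± 0.666 CPM (SD, n = 3), and WT replicate 1 was the lowest of the group. The 3 genes annotated inside the long body of Dok6, a pair of processed pseudogenes and a microRNA, had 0 counts in all 6 libraries.

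6330403K07Rik (ENSMUSG00000018451.6) lies on the minus strand of chromosome 11 from 71031941 to 71033513, with 1494 exonic bases. WT replicates 1 to 3 gave 56, 26 and 29 reads of it, and each Pbrm1 cKO library gave 0. WT replicate 1 stood well above the other WT libraries, at 149% of the WT mean by CPM against 72.4% and 78.4%. By the same floor of 3 counts over the group, the pooled WT level of the gene was 44.1 times that of Pbrm1 cKO, again without the error of the WT reads. Its WT mean was 2.71 ± 1.16 CPM (SD, n = 3), the widest relative spread of the 6 genes.

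Dpysl4 (ENSMUSG00000025478.15) lies on the plus strand of chromosome 7 from 139086001 to 139102704, with 5983 exonic bases. It had 115, 82 and 75 counts in WT replicates 1 to 3. In Pbrm1 cKO replicates 1 and 2 it had 0 counts, and in replicate 3 it had 1. The whole Pbrm1 cKO group thus held a single read of this gene. WT held 324 times the level of Pbrm1 cKO when counts were pooled over each group, with a 95% exact conditional interval of 57.7 to 12840 that is wide because it rests on that read. WT replicate 1 was again the highest, and the WT mean was 6.66 ± 1.46 CPM (SD, n = 3).

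Tmem121 (ENSMUSG00000049036.7) lies on the plus strand of chromosome 12 from 113185930 to 113189523, with 1574 exonic bases. The WT libraries held 26, 20 and 30 reads of it, against 0, 1 and 1 in the Pbrm1 cKO libraries. WT replicate 2 sat exactly on the limit of 20, which makes Tmem121 the member nearest to that limit. The pooled ratio of WT to Pbrm1 cKO was 45.3, with a 95% exact interval of 12.1 to 381 that rests on 2 reads in Pbrm1 cKO. The WT mean was 1.86 ± 0.344 CPM (SD, n = 3).

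Rufy4 (ENSMUSG00000061815.11) lies on the plus strand of chromosome 1 from 74125541 to 74148223, with 2329 exonic bases. Its transcripts had 41, 36 and 37 reads in the WT libraries, against 3, 2 and 3 in the Pbrm1 cKO libraries. Reads of this gene were thus few but present in every Pbrm1 cKO library. The pooled ratio of WT to Pbrm1 cKO was 17.0 (95% exact interval 8.33 to 40.3), and 6.04% of the WT mean remained, the largest remainder of the 6 genes. The WT libraries were close together, at 2.79 ± 0.141 CPM (SD, n = 3).

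Nsg1 (ENSMUSG00000029126.7) lies on the minus strand of chromosome 5 from 38137192 to 38159907, with 3215 exonic bases. It was the member with the most reads, with 469, 428 and 439 reads in the WT libraries, against 9, 10 and 12 in the Pbrm1 cKO libraries. Both groups were tight, with no library standing apart. Normalised counts averaged 484 ± 15.3 for WT against 9.38 ± 1.69 for Pbrm1 cKO (SD, n = 3 per group). The pooled ratio was 51.3, and its 95% exact interval of 36.0 to 75.9 was the narrowest relative to its value, since this gene gave 1336 of the 2018 WT reads and 31 of the 42 Pbrm1 cKO reads of all 6 genes. Nsg1 overlaps Stx18 on the other strand, where 15.6% of the 50-base stretches of its transcripts match Stx18 in reverse and none match another gene on the same strand. The authors counted reads by strand, and Stx18 had 464, 519 and 520 reads in the WT libraries, against 427, 573 and 491 in those of Pbrm1 cKO (log2 fold change -0.29, SE 0.12, DESeq2 adjusted p = 0.0632). Sequence shared with other genes was absent for Dpysl4, 6330403K07Rik, Tmem121 and Rufy4 at this length, and made up 0.0509% of the stretches of Dok6.

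**Figure D1:**
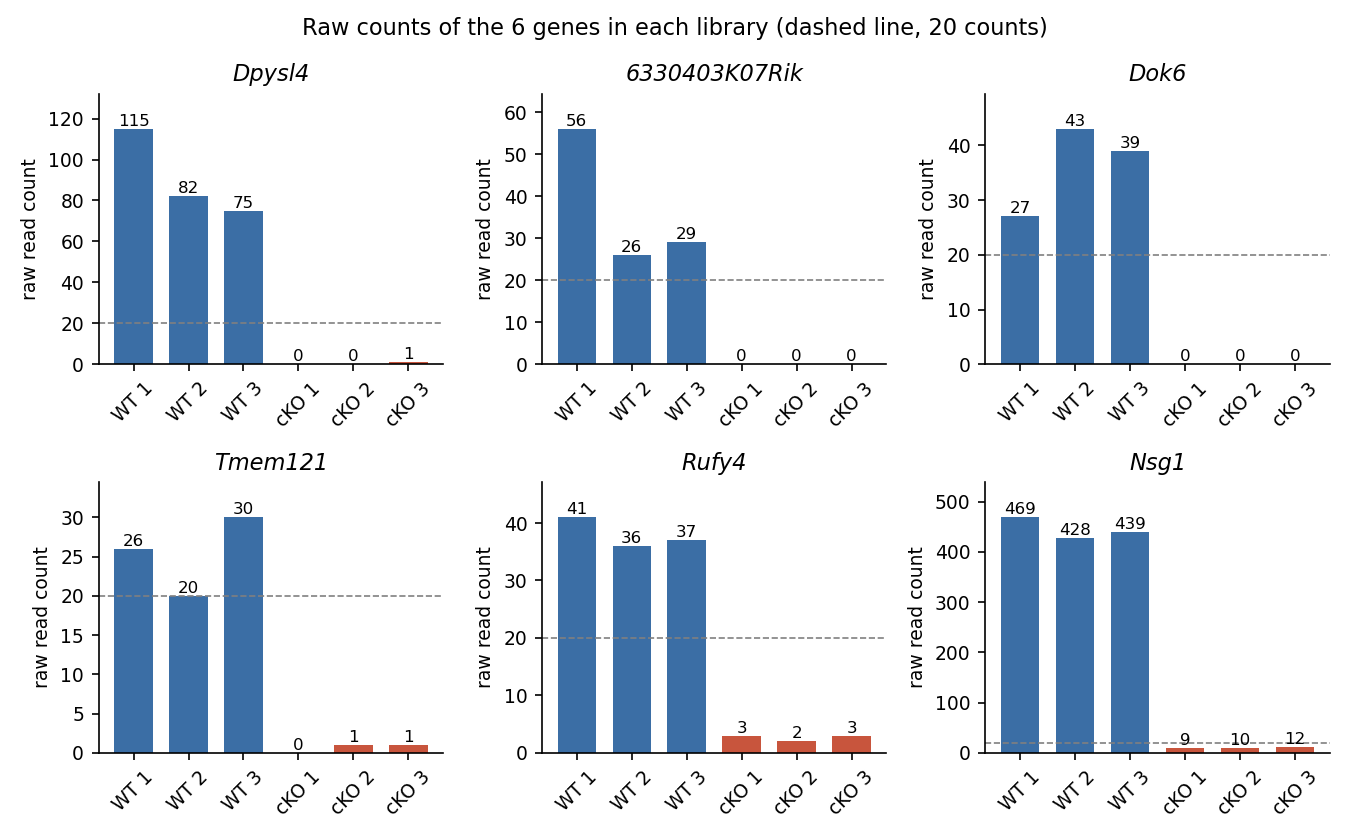
Raw read counts (y axis, linear, a separate scale for each gene) of the 6 genes in WT replicates 1 to 3 (blue) and Pbrm1 cKO replicates 1 to 3 (red), 1 bar per library with its count above it. Every WT bar reaches the dashed line at 20 counts and every Pbrm1 cKO bar stays below it, from 0 for Dok6 and 6330403K07Rik to 12 for Nsg1.

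In every member the lowest WT library was above the highest Pbrm1 cKO library. The rule fixes this up to a tie, and nothing is read from it; among the 11070 protein-coding genes that met the WT limit, 29.5% were separated in this direction. In these bulk preparations fewer cells that express a gene and less RNA per cell cannot be told apart. Genes just inside the WT limit besides Tmem121 were Ang2 (27, 34 and 20 counts in WT, 8, 3 and 8 in Pbrm1 cKO) and Hist1h2bk (21, 27 and 20, against 3, 7 and 9). Lefty1 missed that limit by 1 count in WT replicate 2, with 22, 19 and 32 counts in WT and 0 in each Pbrm1 cKO library. At the Pbrm1 cKO limit, Nipsnap1 was just inside (100, 93 and 93 counts in WT, 7, 20 and 20 in Pbrm1 cKO) and Galnt15 just outside (111, 133 and 113, against 18, 20 and 21).

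The 6 genes stood at the far end of the 160 that met both limits. This order comes from the counts that also chose the genes, so it is a description and nothing is read from it. By the share of the WT mean CPM left in Pbrm1 cKO, 6330403K07Rik and Dok6 shared rank 1, Dpysl4 held rank 3, Nsg1 rank 5, Tmem121 rank 6 and Rufy4 rank 12. Ranks 1 and 3 rest on 0 or 1 read in Pbrm1 cKO. The intervals of Nsg1 and Tmem121 given above overlap, so their order is not resolved. The median share left over the 160 genes was 25.6%, a far larger share than the 6 genes kept. The 6 lowest ranks held 5 of the 6 members and 1 other gene. Genes ranked between Tmem121 and Rufy4 included Rnase2a (3.36% left), Slc35f2 (4.9% left) and Aplp1 (5.96% left). In the other direction, 220 of 11320 protein-coding genes with at least 20 counts in every Pbrm1 cKO library (1.94%) had at most 20 in every WT library.

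**Figure D2:**
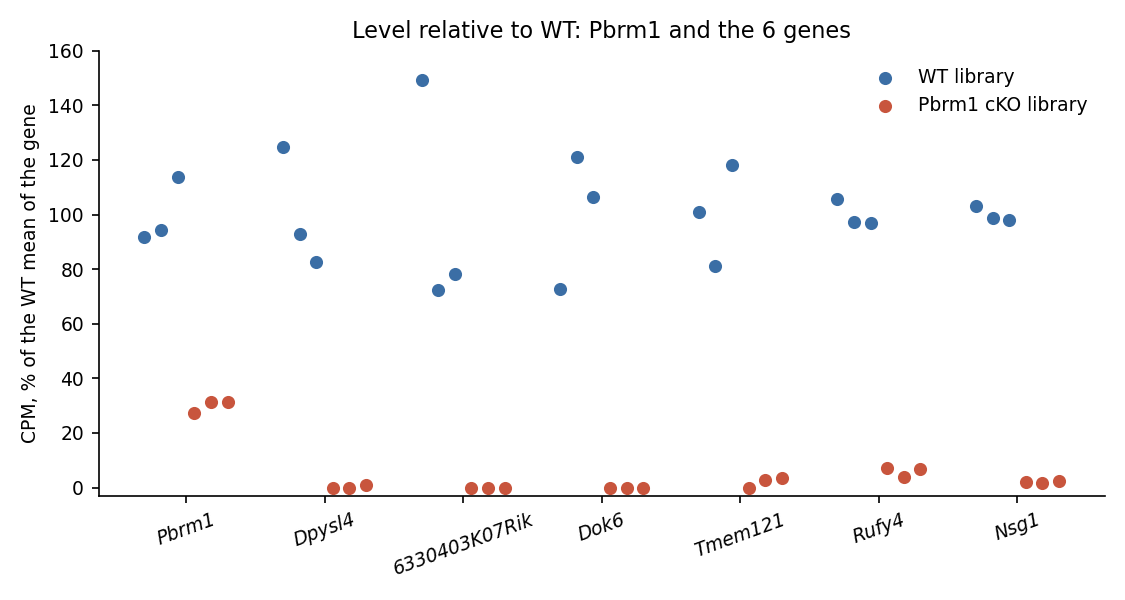
CPM of each library as a percentage of the WT mean of the same gene (y axis, linear) for Pbrm1 and the 6 genes, with 3 WT libraries in blue and 3 Pbrm1 cKO libraries in red. Pbrm1 kept 27.2 to 31.4% of its WT mean, while the 6 genes kept between 0% and 7.23%, and WT libraries of 6330403K07Rik spread from 72.4 to 149%.

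Per length, the 6 genes were expressed at low to medium levels in WT. TPM values (counts per exonic base, scaled to a common total) were 28.4 ± 1.59 for Nsg1, above a median of 17.7 for the 11070 protein-coding genes that met the WT limit. The next 4 genes by TPM did not separate by the ranges of their libraries, with 5.08 ± 2.32 for 6330403K07Rik, 3.34 ± 0.261 for Rufy4, 3.30 ± 0.658 for Tmem121 and 3.11 ± 0.759 for Dpysl4. Dok6 was the lowest at 1.44 ± 0.321 TPM, with no library as high as any WT library of the other genes (SD, n = 3 for each). Of the genes that met the WT limit, 63.1% had a lower WT level than Nsg1 and 3.88% a lower one than Dok6.

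The WT libraries spread by different amounts from gene to gene, which is given as a description, since 3 libraries do not separate the members by their spread. The coefficient of variation of CPM over 3 libraries was 2.85% for Nsg1 and 5.06% for Rufy4, no larger than the 4.74% and 16.2% that counting error alone gives at their depth. Tmem121 varied by 18.5%, where counting alone gives 19.9%. Dok6 varied by 24.8% against 16.6%, Dpysl4 by 21.9% against 10.5%, and 6330403K07Rik by 42.7% against 16.4%. WT replicate 1 was the highest WT library by CPM for 4 of the 6 genes and the lowest for Dok6. That library also had the lowest summed leukocyte, dendritic cell, Schwann cell, epithelial and endothelial marker levels of the WT group. The sum was 186 CPM for 8 leukocyte markers against 464 and 472 CPM in replicates 2 and 3. For dendritic cell markers it was 25.3 CPM against 45.4 and 43.55 CPM, and for Schwann cell markers 15.9 CPM against 16.9 and 17.5 CPM. WT replicate 1 had the highest summed stromal (8437 CPM against 7386 and 7305), neuronal (156 against 146 and 141.5), smooth muscle (4038 against 3925 and 3751) and mesothelial levels (37.65 against 33.3 and 33.1). What part this had in the spread of the 6 genes was not tested.

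Of 17 relatives in the CRMP, NSG, DOK, RUFY and TMEM121 families, 13 could be tested, 2 fell (15.4%) and 5 rose (38.5%) at a DESeq2 adjusted p under 0.05. These 13 are relatives of Dpysl4, Dok6 and Rufy4 only, since those of Nsg1 and Tmem121 had too few reads to be tested and no family was listed for 6330403K07Rik. Over all 17474 genes tested, 15.2% fell and 15.9% rose (31.1% in either direction), with a median log2 fold change of -0.001. Among the CRMPs, Crmp1 fell with Dpysl4. Crmp1 had 229, 231 and 270 reads in the WT libraries, against 45, 56 and 47 in the Pbrm1 cKO libraries, and its normalised counts went from 264 ± 24.5 to 44.4 ± 0.323 (SD, n = 3 per group). This was a log2 fold change of -2.57 with an SE of 0.20 (DESeq2 adjusted p = 2.82e-34). The groups were far apart, although Crmp1 stayed well above the limit of 20 counts. Dpysl2 fell by 0.54 on the log2 scale (DESeq2 adjusted p = 0.00334), a call lost without Pbrm1 cKO replicate 3, and Dpysl3 did not pass the threshold (log2 fold change -0.30, adjusted p = 0.0539). Dpysl2 and Dpysl3 were the abundant CRMPs, at 172 ± 43.8 and 246 ± 46.4 TPM in WT (SD, n = 3 each). Dpysl4 therefore made up 0.671 to 0.753% of the summed TPM of the 5 CRMP genes in WT, and 0 to 0.0101% in Pbrm1 cKO. Dpysl5 had at most 2 counts in any library.

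Dok6 was likewise a minor member of its family. It made up 2.59 to 3.69% of the summed TPM of the 7 DOK genes in WT, and the family sum was 46.8 TPM in WT and 61.4 TPM in Pbrm1 cKO. Dok2 and Dok3, adaptors of blood cells, rose. Dok2 had 16, 37 and 30 reads in the WT libraries, against 106, 107 and 87 in those of Pbrm1 cKO (log2 fold change 1.59, SE 0.33, DESeq2 adjusted p = 1.83e-05). Dok3 had 19, 23 and 32 reads in the WT libraries, against 76, 114 and 85 in those of Pbrm1 cKO (log2 fold change 1.61, SE 0.31, DESeq2 adjusted p = 3.01e-06). In both the groups were apart, and all 8 of 8 leukocyte markers rose with them, from a summed 186 to 472 CPM in WT to 1626 to 1842 CPM in Pbrm1 cKO; the part of these cells was not tested. Dok1, Dok4, Dok5 and Dok7 did not pass the threshold, with log2 fold changes from -0.07 to 0.73.

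In the RUFY family the tested relatives of Rufy4 that passed the threshold moved the other way. Rufy1, an endosomal protein, rose by 0.63 (DESeq2 adjusted p = 6.37e-07) and Rufy3 by 0.51 (DESeq2 adjusted p = 0.000995) on the log2 scale. Fyco1, which links autophagosomes to microtubule motors, rose by 0.42 (DESeq2 adjusted p = 0.0275), a call lost when any of 4 libraries was left out (WT replicates 1 and 3, and Pbrm1 cKO replicates 1 and 2). Rufy2 did not pass the threshold (0.11, adjusted p = 0.699). Rufy4 was 3.61 to 4.69% of the summed TPM of these 5 genes in WT and 0.104 to 0.194% in Pbrm1 cKO. Nsg1 and Tmem121 were in contrast nearly the whole of their small families in WT. Nsg1 held 99.1 to 99.5% of the summed TPM of the NSG genes, where Nsg2 had 2, 3 and 5 counts in WT and Caly had 1 count in all. Tmem121 held 91.2 to 100% beside Tmem121b, which had at most 6 counts in any library.

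**Figure D3:**
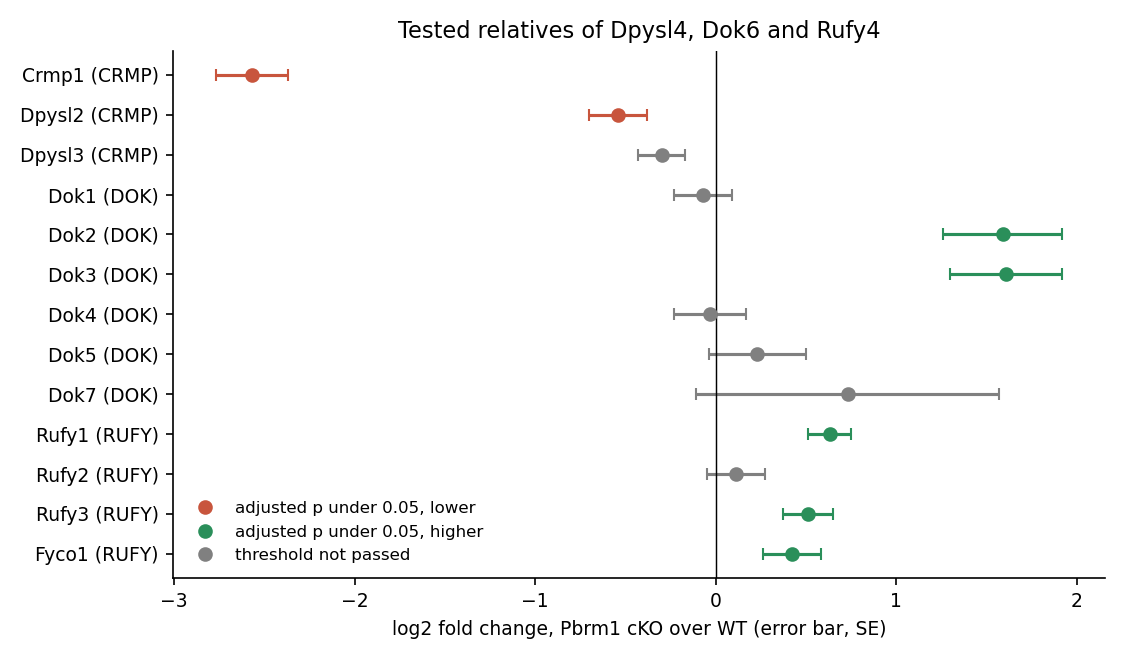
Log2 fold changes of Pbrm1 cKO over WT (x axis; error bars, DESeq2 SE; 3 libraries per group) for the 13 tested relatives of Dpysl4, Dok6 and Rufy4, with the family in brackets and the colour giving the DESeq2 call. Crmp1 lies far to the left at -2.57, while Dok2, Dok3, Rufy1, Rufy3 and Fyco1 lie to the right of 0.

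Genes of the pathways in which the members act were read from 4 lists with 64 genes, of which 58 were tested, 10 fell (17.2%) and 14 rose (24.1%), beside 15.2% and 15.9% of all genes. Nothing particular to the lists is read from these shares. For Dpysl4, 18 genes of semaphorin signalling were tested, of which 2 fell and 7 rose, with a median log2 fold change of 0.22. The 7 became 3 without Pbrm1 cKO replicate 1 or 2 and 4 without WT replicate 2, as Sema3a, Sema3c and Sema3e were lost in each of these fits and Plxnd1 in the first pair. Sema3b, a secreted semaphorin, had 38, 35 and 28 reads in the WT libraries, against 5, 12 and 10 in those of Pbrm1 cKO (log2 fold change -2.19, SE 0.48, DESeq2 adjusted p = 5.01e-05). Sema3g fell by 1.83 (adjusted p = 0.0193), a call kept in only 1 of 6 fits that left out a library. Among the genes that rose, Fes, a tyrosine kinase, had 64, 87 and 83 reads in the WT libraries, against 241, 297 and 278 in those of Pbrm1 cKO (log2 fold change 1.53, SE 0.19, DESeq2 adjusted p = 8.95e-14).

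For Dok6, 11 of 15 genes of the RET and Trk receptors and their ligands were tested, of which 2 fell and 1 rose (2 rose without WT replicate 1). Over all genes tested 15.2% fell and 15.9% rose. The median log2 fold change of the list was -0.43. Gfra2, a co-receptor of RET for neurturin, had 18, 11 and 14 reads in the WT libraries, against 2, 2 and 0 in the Pbrm1 cKO libraries. WT held 12.8 times the pooled level of Pbrm1 cKO (95% exact interval 4.65 to 49.1; DESeq2 adjusted p = 0.00082), although its WT counts lay under the limit of 20. Ntrk3, the receptor TrkC, fell by 1.46 (adjusted p = 0.0282), a call lost without WT replicate 2 and without any one of the Pbrm1 cKO replicates. Ntrk2, the receptor TrkB, rose by 1.16 on the log2 scale (DESeq2 adjusted p = 0.000144). Ret itself had 20, 20 and 20 reads in the WT libraries, against 12, 20 and 22 in the Pbrm1 cKO libraries, and did not pass the threshold (log2 fold change -0.43, SE 0.46, adjusted p = 0.552). A small difference was not detectable at this depth.

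For Nsg1, 11 of 13 endosomal sorting partners were tested, of which 4 fell and 2 rose (1 rose without WT replicate 1 or 2 or Pbrm1 cKO replicate 1 or 2). Over all genes tested 15.2% fell and 15.9% rose. The median log2 fold change of the list was -0.39, and nothing particular to so few genes is read from these counts. Gria4, a subunit of AMPA glutamate receptors, had the lowest log2 fold change of this list. It had 125, 125 and 122 reads in the WT libraries, against 17, 14 and 13 in the Pbrm1 cKO libraries, and so met the same limits as the 6 genes (log2 fold change -3.34, SE 0.31, DESeq2 adjusted p = 4.42e-25). Bace1, the protease that cuts the amyloid precursor protein, had 606, 478 and 514 reads in the WT libraries, against 348, 352 and 292 in those of Pbrm1 cKO (log2 fold change -0.95, SE 0.15, DESeq2 adjusted p = 2.61e-09). For Rufy4, 18 genes of autophagy and late endosomes were tested, of which 2 fell and 4 rose, beside the same shares over all genes, with a median of 0.00. Of these, 2 rose without Pbrm1 cKO replicate 1 or 3, and 1 fell without WT replicate 2 or any one of the Pbrm1 cKO replicates. Plekhm1, an adaptor for fusion with lysosomes, had 193, 202 and 299 reads in the WT libraries, against 624, 691 and 598 in the Pbrm1 cKO libraries, and rose by 1.20 on the log2 scale (DESeq2 adjusted p = 2.77e-10). Map1lc3a, an LC3 protein of the autophagosome membrane, had 1398, 1472 and 1426 reads in the WT libraries, against 944, 1195 and 944 in those of Pbrm1 cKO (log2 fold change -0.75, SE 0.10, DESeq2 adjusted p = 1.5e-13).

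Genes on either side of the 6 members on the chromosome were compared. The 3 nearest tested protein-coding genes on each side gave 35 neighbours, some of them far away (up to 3017 kb, with all 3 genes after Tmem121 at 2858 kb or more), of which 5 fell (14.3%) and 4 rose (11.4%), beside 15.2% and 15.9% over all genes, with a median log2 fold change of -0.09. Nothing particular to the neighbours is read from these shares. None of the neighbours of Dpysl4 and Nsg1 passed the threshold (0 of 6 for each, log2 fold changes from -1.13 to 0.26 and from -0.29 to 0.75). The gene nearest to Dok6 with a test was Cd226, a receptor of T and NK cells 30.9 kb away, and it rose. It had 0, 2 and 2 reads in the WT libraries, against 15, 15 and 15 in the Pbrm1 cKO libraries, a pooled ratio of 9.44 (95% exact interval 3.44 to 36.2; DESeq2 adjusted p = 0.00444). On the other side of Dok6, Tmx3 fell by 0.47 (DESeq2 adjusted p = 1.38e-05) at 741 kb.

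Near 6330403K07Rik, 3 of 6 neighbours passed the threshold, 2 of them upward, beside 31.1% of all genes tested in either direction. Nlrp1b, an inflammasome sensor 120 kb away, had 0, 2 and 1 reads in the WT libraries, against 26, 40 and 27 in the Pbrm1 cKO libraries, a pooled ratio of 26.0 (95% exact interval 8.63 to 128.5; DESeq2 adjusted p = 1.25e-05). Pimreg, at 1009 kb, fell by 1.84 (adjusted p = 0.0357), a call kept in 1 of 6 fits that left out a library. The other upward call, at 1014 kb, was kept in 3 of these 6 fits. Cd226 and Nlrp1b are known from immune cells, whose markers rose as given above, and the part of these cells was not tested. Near Tmem121 the only neighbour past the threshold was Crip2, at 40.4 kb, which fell by 0.69 (DESeq2 adjusted p = 8.36e-06). Rufy4 lay 1.09 kb from Tns1, a focal adhesion protein that rose by 0.54 (DESeq2 adjusted p = 0.00042), while Igfbp5, which binds insulin-like growth factors, fell by 1.09 (DESeq2 adjusted p = 1.72e-06) at 1251 kb.

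**Figure D4:**
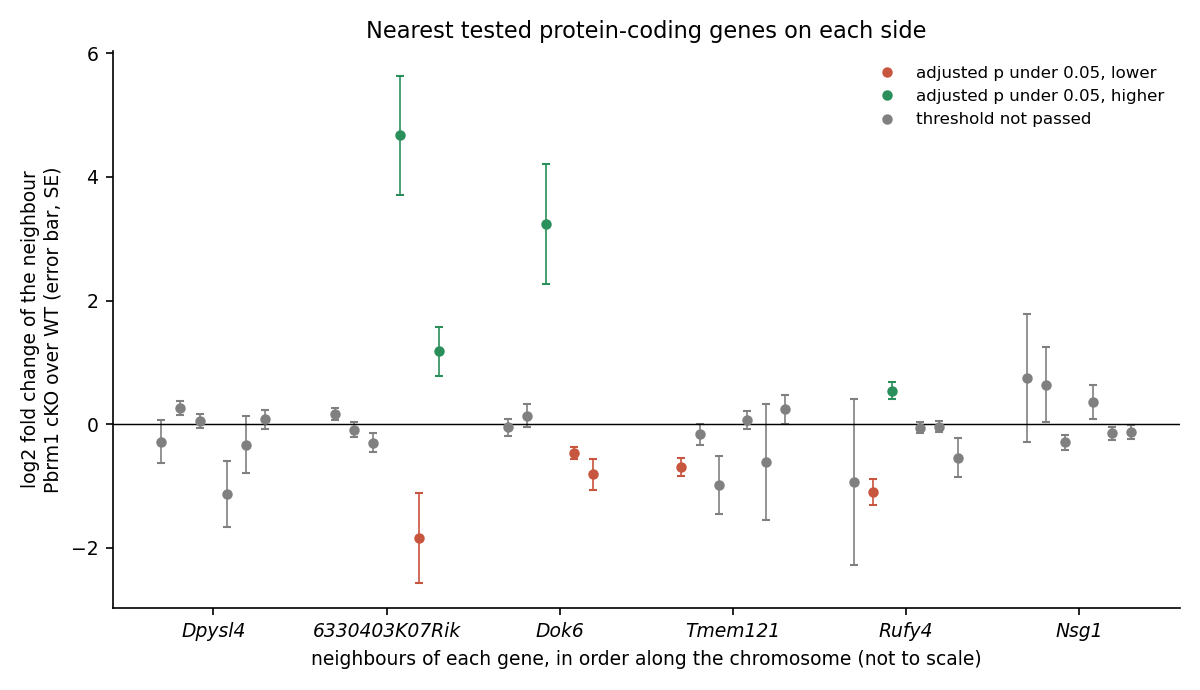
Log2 fold changes of Pbrm1 cKO over WT (y axis; error bars, DESeq2 SE; 3 libraries per group) for the tested protein-coding neighbours of each gene, placed left or right of the gene in chromosome order with distance not to scale. Most of the 35 points lie near 0, and the highest are Nlrp1b at 4.67 beside 6330403K07Rik and Cd226 at 3.23 beside Dok6, whose WT counts were at most 2 per library.

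Marker genes of other cells were read because several members are known from neurons. All marker counts here stand beside the same shares over all genes tested, 15.2% lower and 15.9% higher. Stromal markers were high in both groups, at 7305 to 8437 CPM summed over 11 genes in WT and 5730 to 6079 CPM in Pbrm1 cKO. Of these 11 genes 6 fell and 1 rose, the rise being lost without WT replicate 2 or any one of the Pbrm1 cKO replicates and 2 genes rising without WT replicate 1. Col3a1, a fibrillar collagen, fell by 2.17 on the log2 scale (DESeq2 adjusted p = 1.41e-93) and Col1a2 by 0.93 (DESeq2 adjusted p = 1.29e-08). Of 12 neuronal markers 8 were tested, 3 fell and 0 rose, with a median log2 fold change of -1.06. Their summed level was 141.5 to 156 CPM in WT and 110 to 126.5 CPM in Pbrm1 cKO, and most of it came from Uchl1, Tubb3 and Gap43. The defining neuronal marker Rbfox3 was at 0 in all 6 libraries, and Snap25 and Elavl3 had at most 3 counts in any. Gap43, a growth cone protein, had 155, 168 and 184 reads in the WT libraries, against 38, 48 and 36 in those of Pbrm1 cKO (log2 fold change -2.33, SE 0.23, DESeq2 adjusted p = 2.01e-22). Syt1, a sensor of synaptic vesicles, had 7, 18 and 13 reads in the WT libraries, against 0, 1 and 4 in the Pbrm1 cKO libraries (pooled ratio 9.05, 95% exact interval 3.56 to 29.5; DESeq2 adjusted p = 0.00626).

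Of 8 Schwann cell markers 3 were tested and 1 rose, while Sox10, S100b, Cdh19 and Foxd3 had at most 3 counts in any library, and the summed level was 15.9 to 17.5 CPM in WT and 30.5 to 33.7 CPM in Pbrm1 cKO. Most of that sum came from Mbp, a myelin protein with 201, 181 and 207 reads in the WT libraries, against 456, 507 and 445 in those of Pbrm1 cKO (log2 fold change 0.99, SE 0.14, DESeq2 adjusted p = 1.86e-11). Dendritic cells, in which Rufy4 is known, had 8 markers of which 4 were tested, 3 rose and 0 fell. Their sum was 25.3 to 45.4 CPM in WT and 240 to 241 CPM in Pbrm1 cKO, where most of it came from H2-Aa, an MHC class II gene of antigen-presenting cells. Itgax, the integrin CD11c of dendritic cells, had 6, 9 and 13 reads in the WT libraries, against 154, 189 and 154 in those of Pbrm1 cKO (log2 fold change 3.88, SE 0.35, DESeq2 adjusted p = 1.53e-26), and Ccr7, a chemokine receptor, rose by 1.64 (DESeq2 adjusted p = 0.00984). Xcr1 was at 0 in all libraries, and Flt3, Clec9a and Cd209a had no more than 3 counts in any. Endothelial markers fell in 3 of 8 genes, from 107 to 315 CPM in WT to 87.0 to 97.4 CPM in Pbrm1 cKO, and the 3 became 7 without WT replicate 1 and 1 without any one of the other libraries. What part these cells had in the level of the 6 genes was not tested. Epithelial markers rose in 3 of 7 tested genes, from 113.5 to 181.5 CPM in WT to 191 to 203 CPM in Pbrm1 cKO. Smooth muscle markers fell in 3 of 8 (3751 to 4038 CPM against 3649 to 3789 CPM), and no mesothelial marker passed the threshold (0 of 4 tested, 33.1 to 37.65 CPM against 37.9 to 40.6 CPM).

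**Figure D5:**
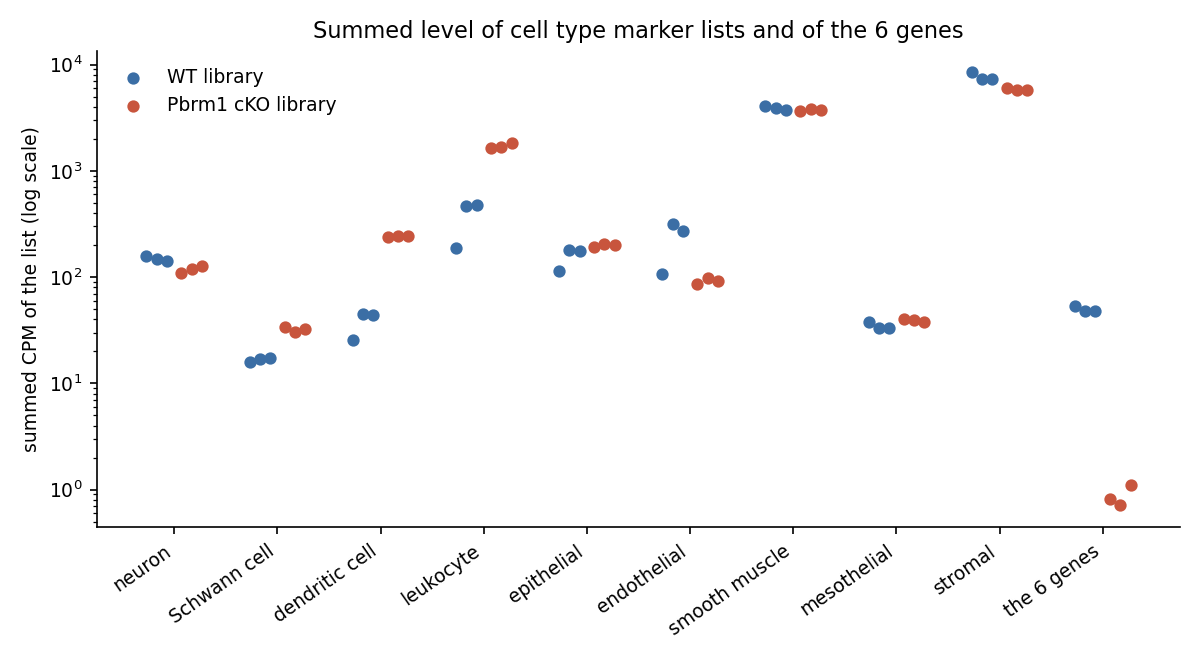
Summed CPM (y axis, log scale) of each marker list and of the 6 genes in each WT (blue) and Pbrm1 cKO (red) library. The 6 genes summed to 47.5 to 52.9 CPM in WT and 0.709 to 1.10 CPM in Pbrm1 cKO.

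The genes most like the members in profile were found from log2(CPM + 0.5) centred on the WT mean of each gene, as the Euclidean distance over 6 libraries to the median profile of the 6 genes. That median was -2.64 in each Pbrm1 cKO library, because the added 0.5 limits how far a gene with few reads can fall. The closest were Ntn4 (distance 0.281), a secreted netrin, Pclaf (0.318), a PCNA-binding protein of replication, Sorcs1 (0.356), a sorting receptor, Cdc6 (0.360), which loads replication origins, and Kif1a (0.380), a kinesin that carries synaptic vesicle precursors. Ntn4 had 2282, 2403 and 2338 reads in the WT libraries, against 406, 480 and 363 in the Pbrm1 cKO libraries, so it remained far above the limit of 20. The members themselves lay at distances of 0.536 (Dok6) to 3.87 (Nsg1) from their own median profile, farther than these 5 genes.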

How the data were processed

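RNA-seq libraries of 3 WT and 3 Pbrm1 cKO stromal cell preparations were analysed from the count table. The labels describe a total RNA kit with depletion of unwanted transcripts, while poly(A) selection is named in the methods of the study. The authors trimmed reads with cutadapt, mapped them with HISAT2 to GRCm38 and counted them by strand with featureCounts 1.6.4 on GENCODE release 18; the deposited values are raw counts per gene, with replicates kept apart. Names and biotypes came from GENCODE release 21 (54079 of 54232 identifiers, 99.7%). Within groups, no pair of libraries agreed to within counting noise (median chi-square 1.64 to 11.4 times the value that noise gives).

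All genes were fitted in DESeq2 1.42.0, a tool the study also used, under R 4.3.3 (median-of-ratios size factors, Wald test, genotype as the only factor, Benjamini-Hochberg threshold 0.05, n = 3 per group), with edgeR 4.0.16 as an alternative. Adjusted p-values come from DESeq2 throughout and set each fold change against the spread between these preparations. Both tools were tested on simulated data. Folds of genes with few reads are pooled count ratios with exact conditional 95% intervals. These cover counting error only, because counts were summed over the libraries of a group and the spread between libraries is left out. The true uncertainty is therefore wider. As reads had no molecular identifiers, repeated reads of 1 molecule could not be told apart. A group at 0 was set at 3 counts over the group.

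The members and lists were chosen with earlier results of these data known. Genes named are the 6 members, Pbrm1, the family genes, at most 2 genes per partner or marker list, at most 2 called neighbours per member, genes nearest to the limits and the 5 closest profiles (mean normalised count of at least 10). Stx18, Ret, Fes, Ntrk2, Map1lc3a, Ccr7, Sema3a, Sema3c, Sema3e, Plxnd1, Rnase2a, Slc35f2, Aplp1 and the markers at or near 0 or with most of a sum were named in addition, after their values were seen. The result for 1 gene of the marker lists is not reported here. Alternatives were other size factors, filters, limits, a replicate block and leaving out each library.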

Additional observations from a re-analysis of the deposited data

How the results depend on the processing

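The number of protein-coding genes within the limits was 23 instead of 160 with at least 50 counts in every WT library, 174 to 222 when a library was left out (a count that cannot fall, since 1 condition is dropped), and 2 of the 6 members met the stricter limit while 5 met limits of 10 and 10. Replicate numbers did not pair the libraries (correlations of same-numbered deviations 0.11, -0.05 and 0.00), and with a replicate block the family and partner genes called higher were 12 instead of 19, the neighbours called lower 3 instead of 5, and all genes 1812 lower and 2160 higher. Leaving out each library in turn gave 11 to 19 family and partner genes higher (11 without Pbrm1 cKO replicate 1, 12 without replicate 2) and 8 to 13 lower, 3 to 7 neighbours lower and 3 to 5 higher (3 lower and 5 higher without WT replicate 3, 3 lower and 4 higher without Pbrm1 cKO replicate 2), and 1790 to 2648 genes lower and 1923 to 2915 higher. The cause of these shifts was not tested, though fewer libraries or residual degrees of freedom enter each such fit. edgeR called 2915 genes lower and 2948 higher. Over the edgeR estimate, the ratio of mean CPM + 0.5, the replicate block and the fits without a library, the log2 fold change lay between -5.84 and -4.86 for Nsg1, -5.96 and -2.13 for Tmem121 and -4.25 and -2.30 for Rufy4, the smaller size in each case from the ratio of mean CPM + 0.5, where the added 0.5 limits the fall. Fitted values of Dok6, 6330403K07Rik and Dpysl4, with 0 or 1 read in the Pbrm1 cKO group, are no measured folds and are not given. With at most 56 counts per WT library, the remaining level of 6330403K07Rik, Dok6, Tmem121 and Rufy4 was not resolved below a few percent of WT, and that of Dpysl4 rests on 1 read.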
